A study of Mus musculus with 8 samples.

Results

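The genes described here make cholesterol or sense and handle sterols inside the cell. The set was chosen by gene name, with earlier results of these data known. It holds 30 genes, out of 47242 gene symbols and other names on the array, and 43 probes read them. It spans 8 genes of the early mevalonate steps, 3 of the squalene and lanosterol steps, 9 of the steps from lanosterol to cholesterol, 7 of sterol sensing and 3 of sterol handling. A single probe read 17 of the genes and 2 probes read each of the other 13.

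RNA came from donor-derived myeloid cells of mouse brain 7 days after a stroke model, made by closing the middle cerebral artery for 30 min (MCAo) and then reopening it. Mice with a wild-type genotype had received bone marrow from donors marked with the red fluorescent protein DsRed, and the donors were either Psgl1+/+ or Psgl1-/-. Selplg encodes PSGL-1, a leukocyte glycoprotein that binds selectins. Live (PI-) DsRed+ CD11b+ CD45hi cells without Ly6G and CD3 were sorted from the ischemic brain, and 8 single-colour arrays were read, 4 labelled Psgl1+/+ (wild-type replicates 1 to 4) and 4 labelled Psgl1-/- (knockout replicates 5 to 8). The host mice, DsRed, the occlusion, the time and the sort were shared by both groups, and the PSGL-1 genotype of the donor marrow was the labelled difference. Age, sex and the number of mice behind each sample are not stated in the labels, nor is how the hosts were prepared or what blood cells of their own they kept.

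Cells build cholesterol from acetyl-CoA through mevalonate, squalene and lanosterol. When the membrane of the endoplasmic reticulum holds little cholesterol, the escort protein SCAP carries SREBP transcription factors to the Golgi, where proteases free the part that enters the nucleus and switches on synthesis genes. When sterols are plentiful, INSIG proteins hold SCAP back. Phagocytes that clear myelin after brain injury take up large amounts of cholesterol, which they esterify, move between membranes or export.

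Selplg, the targeted gene, was read by 1 probe. The wild-type arrays (replicates 1 to 4, in that order here and throughout) gave log2 signals of 13.80, 12.67, 13.05 and 15.75, and the knockout arrays (replicates 5 to 8) gave 13.25, 13.45, 13.15 and 12.87. The groups overlapped (difference -0.64, SE 0.65, limma adjusted p = 0.68), and since no source used here names the deleted part of the gene, this probe checks nothing about the labels. All 11 markers of marrow-derived myeloid cells were well above background on all 8 arrays, with a summed log2 signal of 15.82 to 17.49 in the wild-type and 16.16 to 17.41 in the knockout arrays. The 8 lists of cell type markers held no gene that was below background everywhere, those of T cells, neutrophils, neurons and glia included. Only the list of 9 neuron markers separated the groups fully, at 17.14 to 17.78 in the wild-type and 16.61 to 16.96 in the knockout arrays. For the neutrophil list, knockout replicates 5, 7 and 8 (13.32, 14.62 and 13.44) lay above every wild-type array. Replicate 6 (12.46) lay within the wild-type range. For the T cell list, knockout replicates 6, 7 and 8 (12.05, 11.93 and 11.81) lay below every wild-type array, and replicate 5 lay within their range. The part of these marker lists in the differences reported here was not tested. Of the gene spots, 76.1% to 88.2% were well above background on an array, and repeated spots of a probe had a median coefficient of variation of 3.93% to 6.47%. All values are log2 signals scaled to the 75th percentile of each array, and each difference is knockout minus wild-type. Signals of different probes have no common scale, so a bright gene is not thereby an abundant one. Fewer cells of a kind and less RNA per cell cannot be told apart in such bulk samples.

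No sterol gene differed between the groups past the adjusted threshold of 0.05, against 1 of 42312 genes on the whole array (0.00236%, limma with Benjamini-Hochberg adjustment). Of the 30 genes, 28 were tested, since Idi1 and Scap were well above background on fewer than 4 arrays. At an unadjusted p under 0.05, Srebf1, Erlin2 and Mylip were higher in the knockout arrays, where 1.62% of all genes were, and Acat1 was lower, where 9.34% of all genes were. The groups did not overlap for Erlin2, which was higher (0.643% of all genes), or for Acat1, which was lower (10.9% of all genes). With cyclic loess scaling in place of the 75th percentile, 1246 of all genes were higher and 797 lower at that threshold, against 684 and 3950. The median difference over the 28 genes was 0.44, with 18 above and 10 below 0, whereas the median over all tested genes was -0.33, with 13037 above and 29275 below 0. That shift of all genes moved with the scaling and was -0.17 after quantile normalization and -0.01 after cyclic loess. Relative to the median of all genes, 22 of the 28 sterol genes lay above it under the 75th percentile scaling, and 20 to 24 under the other 5 ways of scaling (of 27 tested in the authors' value table). The share of sterol genes above 0 went from 64.3% to 82.1% with cyclic loess, in which 49.2% of all genes were above 0 in place of 30.8%. Knockout replicate 7 weighed on the median, which was 0.09 without it, and within slide row 1 it was -0.02 against 0.71 within row 2.

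**Figure D1:**
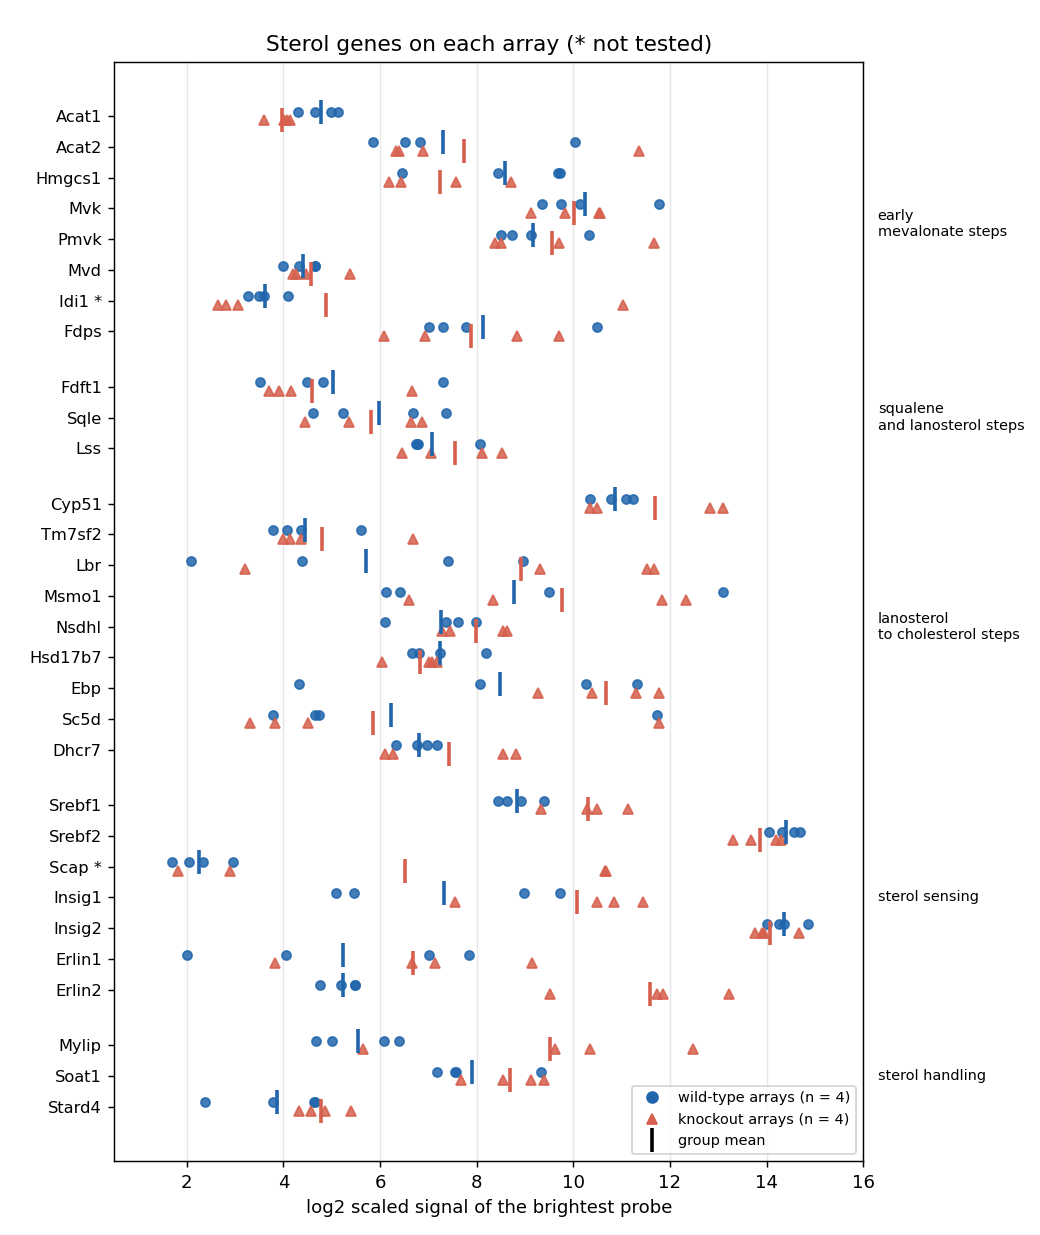
Log2 scaled signal (horizontal axis) of the brightest probe of each of the 30 genes, with circles for the 4 wild-type arrays, triangles for the 4 knockout arrays and bars for group means, and genes ordered by role. Erlin2 has all 4 knockout arrays to the right of the wild-type arrays (9.51 to 13.23 against 4.76 to 5.49), while for most other genes the groups overlap.

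The early mevalonate genes turn acetyl-CoA into the isoprenoid building blocks of sterols. Of the 7 tested, 3 lay above and 4 below 0, with a median of -0.24 that became 0.03 under cyclic loess. Mvk, or mevalonate kinase, had the highest mean signal of them, with log2 signals of 10.13, 11.77, 9.74 and 9.36 on the wild-type and 9.83, 10.56, 9.13 and 10.53 on the knockout arrays. The groups overlapped throughout (difference -0.24, SE 0.59), and wild-type replicate 2 was the highest array. The other Mvk probe gave the same order at the top (11.69 on wild-type replicate 2) and a difference of -0.47 (SE 0.60). It shares most of its bases with the brightest probe, so it is not an independent reading of the gene.

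Acat1, a mitochondrial enzyme that joins and splits acetoacetyl-CoA, had log2 signals of 4.99, 4.66, 4.31 and 5.12 on the wild-type and 4.02, 3.60, 4.13 and 4.08 on the knockout arrays. All 4 knockout arrays lay below all 4 wild-type arrays, by 0.17 at the nearest pair. The difference was -0.81 (SE 0.28, 95% interval -1.46 to -0.16, unadjusted p = 0.0203 and adjusted p = 0.455 by limma). The probe was well above background on only 3 wild-type and 2 knockout arrays, and with normexp background correction the difference was -0.13. Acat2, its cytosolic counterpart, differed by 0.43 (SE 1.36), and its 2 highest arrays were wild-type replicate 3 (10.03) and knockout replicate 7 (11.35), with all others at 5.86 to 6.89.

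Hmgcs1, the synthase that makes HMG-CoA, had the lowest difference of the set at -1.35 (SE 0.87, 95% interval -3.38 to 0.68). Its signals ran from 6.46 to 9.73 in the wild-type and from 6.19 to 8.71 in the knockout arrays, so the groups overlapped. Within slide row 1 the difference was 0.70 and within row 2 it was -3.40. A dimmer Hmgcs1 probe differed by -0.94 (SE 0.42, limma adjusted p = 0.474 over single probes). Pmvk and Mvd, the next kinase and the decarboxylase of the pathway, differed by 0.40 (SE 0.79) and 0.16 (SE 0.34). Fdps, which makes farnesyl diphosphate, differed by -0.25 (SE 1.04), with its highest signals on wild-type replicate 2 (10.48) and knockout replicate 6 (9.70). Idi1, the isomerase before Fdps, could not be tested: knockout replicate 8 read 11.02 and the other 7 arrays 2.64 to 4.09, and 1 array of each group was well above background.

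At the squalene and lanosterol steps, Lss, which folds the squalene chain into lanosterol, had the highest mean signal. Its log2 signals were 6.76, 6.74, 6.78 and 8.06 on the wild-type and 7.06, 8.11, 8.52 and 6.46 on the knockout arrays. Knockout replicate 8 was the lowest array of all, so the groups overlapped (difference 0.45, SE 0.54), and the other Lss probe differed by -0.14 (SE 0.44). Fdft1, which makes squalene, differed by -0.43 (SE 0.96) and Sqle, which oxidises it, by -0.15 (SE 0.78). The direction of Sqle was positive under each of the 5 other scalings (0.01 to 0.25), and the median of the 3 genes was -0.15 here and 0.01 to 0.25 in those.

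The steps from lanosterol to cholesterol remove methyl groups and rearrange double bonds. Of these 9 genes, 7 lay above and 2 below 0, and their median was 0.72, or 1.05 above the median of all genes. Cyp51, the demethylase that acts first on lanosterol, had the highest mean signal, at 10.77, 10.35, 11.09 and 11.23 on the wild-type and 10.34, 13.09, 12.83 and 10.49 on the knockout arrays. Knockout replicates 6 and 7 stood above every wild-type array, whereas replicates 5 and 8 lay within their range or at its edge (difference 0.83, SE 0.70). Tm7sf2 and Lbr encode reductases for the same step. Tm7sf2 differed by 0.35 (SE 0.69). Lbr, also a receptor for lamin B at the nuclear envelope, read 2.09 to 8.96 in the wild-type and 3.20 to 11.66 in the knockout arrays, and its difference of 3.22 had an SE of 2.23.

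Msmo1, Nsdhl and Hsd17b7 act together to take off the remaining methyl groups. Their differences were 0.99 (SE 1.90), 0.72 (SE 0.52) and -0.40 (SE 0.43), and the groups overlapped for each. Ebp, which shifts a double bond, differed by 2.18 (SE 1.46), with wild-type replicate 3 at 4.33 and the other 7 arrays at 8.06 to 11.77. Dhcr7, a reductase of the last steps, differed by 0.62 (SE 0.69), with knockout replicates 5 and 8 highest at 8.81 and 8.55.

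Sc5d, a desaturase of the late steps, was read by 2 probes that gave different pictures, and the first 30 bases of each are shown so that they can be told apart.
Sc5d brightest probe: tgtaataagattgtacttcctatacagagg
Sc5d other probe: gtcttctgacccggcagtacaattctgtct
The other probe lies at chr9:42060087-42060146 in build mm9. The brightest probe read 3.78, 4.66, 11.73 and 4.74 on the wild-type and 4.50, 3.31, 11.78 and 3.83 on the knockout arrays. Wild-type replicate 3 and knockout replicate 7 stood alone, at 7.00 and 7.28 log2 units above the next array of their group, and the difference was -0.37 (SE 2.41). The other probe stayed between 4.0 and 5.23 on all arrays, at 4.77, 4.78, 4.56 and 5.23 on the wild-type and 4.0, 4.31, 4.37 and 4.20 on the knockout arrays. On that probe all 4 knockout arrays lay below the wild-type arrays (difference -0.62, SE 0.25, limma unadjusted p = 0.0402, adjusted p = 0.474 over 51203 probes). Over all single probes, 8.77% were lower and 1.63% higher in the knockout arrays at that unadjusted threshold, and it was well above background on 3 wild-type and 2 knockout arrays.

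**Figure D2:**
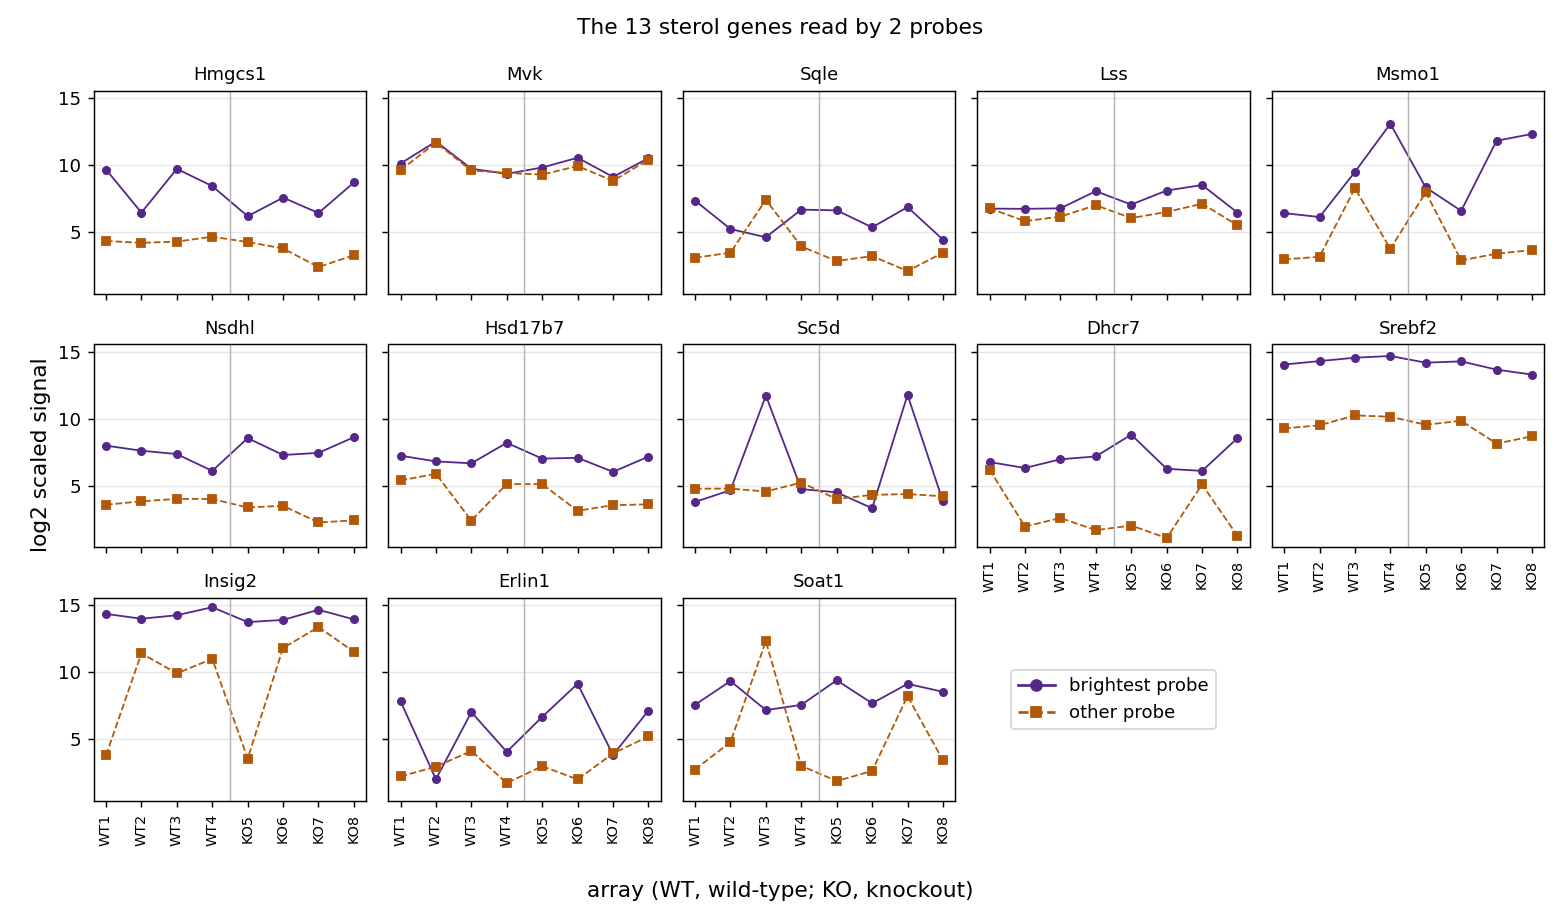
Log2 scaled signal (vertical axis) of both probes of the 13 genes with 2 probes across the 8 arrays (horizontal axis), solid for the brightest probe and dashed for the other. The Mvk probes, which share most of their bases, and the Lss probes move together. For Sc5d, Soat1 and Insig2 only 1 of the 2 probes jumps by several log2 units between arrays.

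Of the 8 genes with 2 tested probes, 5 had differences of the same sign and 3 (Lss, Insig2 and Soat1) of opposite sign. Mvk, whose probes share most of their bases, is among the 5. The dimmer probes of Nsdhl (-0.97), Dhcr7 (-0.74) and Msmo1 (-0.06) were not tested and had the opposite sign to the brightest probe. Those of Sqle (-1.57) and Erlin1 (0.78), also not tested, had the same sign.

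Sterol sensing held Erlin2, the tested gene with the largest difference of the set. Of the 6 tested, 4 lay above and 2 below 0, and the median was 1.46, or 1.79 above that of all genes. Srebf1 encodes SREBP-1, which mainly drives fatty acid synthesis, and Srebf2 encodes SREBP-2, which mainly drives cholesterol synthesis.

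Srebf1 had log2 signals of 8.91, 9.40, 8.45 and 8.62 on the wild-type and 11.13, 10.48, 9.33 and 10.28 on the knockout arrays. Knockout replicate 7 lay just under wild-type replicate 2, and the other 3 knockout arrays exceeded every wild-type array. The difference was 1.46, or 2.76-fold (SE 0.43, 95% interval 0.47 to 2.45, unadjusted p = 0.00955 and adjusted p = 0.455 by limma), at 1.37 within slide row 1 and 1.55 within row 2, and it ranged from 1.19 to 1.96 over the alternatives run for it. The first 30 bases of its single probe are given for identity.
Srebf1 probe: gctccagggcaggcccatgtactactttga

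Srebf2 read 14.05, 14.31, 14.56 and 14.69 on the wild-type and 14.19, 14.29, 13.67 and 13.30 on the knockout arrays. Knockout replicates 7 and 8 were the lowest arrays and replicates 5 and 6 lay within the wild-type range, so the groups overlapped. The difference was -0.54 (SE 0.31, 95% interval -1.27 to 0.18, adjusted p = 0.493 by limma), and a dimmer Srebf2 probe, at chr15:82035495-82035554 in mm9, differed by -0.74 (SE 0.45). Srebf1 and Srebf2 thus lay on opposite sides of 0, which held in each alternative that gave a value for both. Naming probes by the files' gene column alone gave none for Srebf1, and the difference between the 2 genes was not tested.

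Scap was well above background on knockout replicates 6 and 8 and on no wild-type array. Its signals were 2.04, 2.95, 2.33 and 1.69 on the wild-type and 1.82, 10.65, 2.90 and 10.67 on the knockout arrays. The mean of the 4 knockout arrays was 5.4-fold higher than the wild-type bound, the mean of the lowest signal well above background on each wild-type array. This rested on 2 of the 4 knockout arrays. Knockout replicates 5 and 7, not well above background, entered that mean as read, so the fold is not a strict lower limit. No test was made, and knockout replicates 5 and 7 were as low as the wild-type arrays.

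Insig1, a target of SREBP that retains SCAP, read 5.09, 9.73, 8.98 and 5.46 on the wild-type and 10.85, 7.55, 11.44 and 10.49 on the knockout arrays. Knockout replicates 5, 7 and 8 lay above every wild-type array and replicate 6 lay within their range (difference 2.77, SE 1.32, 95% interval -0.29 to 5.83, limma adjusted p = 0.46). Insig2, the form that is less dependent on SREBP, was bright and even on its main probe, at 14.36, 14.00, 14.26 and 14.86 on the wild-type and 13.75, 13.91, 14.67 and 13.95 on the knockout arrays. That probe differed by -0.29 (SE 0.31), a sign that turned to 0.08 after quantile normalization. The files list the same RefSeq transcript for another Insig2 probe, and the first 30 bases of both are shown because they did not follow each other.
Insig2 brightest probe: tctgactactgtggtgtgcgtgtgcttctg
Insig2 other probe: aggcgcagagtgtgaacatcccaagagtac
The other probe read 3.79, 11.41, 9.92 and 11.00 on the wild-type and 3.55, 11.81, 13.38 and 11.53 on the knockout arrays. Wild-type replicate 1 and knockout replicate 5 were near or below background there while both were at the common level on the brightest probe (difference 1.04, SE 2.52).

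Erlin1 and Erlin2 encode membrane proteins of the endoplasmic reticulum that bind cholesterol, hold back the SREBP machinery and help degrade other proteins of that membrane. Erlin2 had log2 signals of 5.19, 4.76, 5.49 and 5.49 on the wild-type and 11.85, 9.51, 13.23 and 11.74 on the knockout arrays. The lowest knockout array, replicate 6, lay 4.02 above the highest wild-type array, and 5 tested genes on the whole array, Erlin2 included, had a gap as wide in that direction. The difference was 6.35, or 81.6-fold (SE 0.72, 95% interval 4.67 to 8.03), and the adjusted p of 0.0951 by limma missed the threshold. Among all tested genes, 12 had a smaller p and 13 had an adjusted p under 0.1. The probe was well above background on all 8 arrays. Within slide row 1 the difference was 5.50 and within row 2 it was 7.20, and the lowest value over the alternatives run for it was 4.95 with normexp. Only without knockout replicate 6 did Erlin2 pass (difference 7.04, adjusted p = 0.0154). Over the alternatives run for it, the limma adjusted p ranged from 0.0154 to 0.555. A single probe read the gene, so no other probe of the array could be set beside it.

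Erlin1 showed no such separation, with 2.00 to 7.84 in the wild-type and 3.82 to 9.14 in the knockout arrays (difference 1.46, SE 1.55). It differed by 5.11 within slide row 1 and by -2.19 within row 2. Its other probe was well above background on 1 knockout array and no wild-type array.

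**Figure D3:**
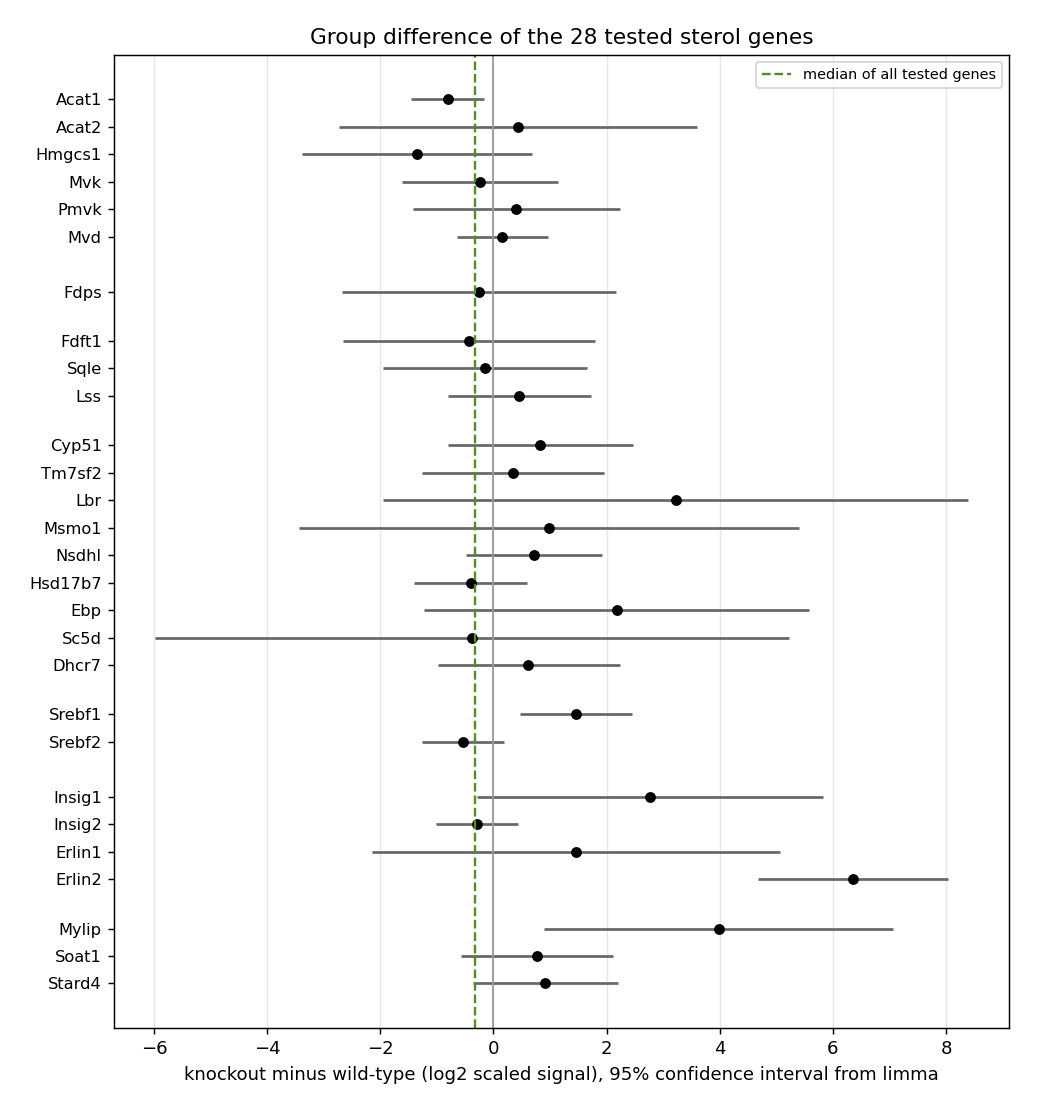
Knockout minus wild-type difference in log2 scaled signal (horizontal axis) of the 28 tested genes, with points for the difference, bars for the 95% confidence interval from limma and a dashed line at the median of all tested genes (-0.33). The intervals of Srebf1, Erlin2 and Mylip lie above 0, that of Acat1 lies below 0, and that of Sc5d spans from -5.98 to 5.23.

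Sterol handling was represented by Mylip, Soat1 and Stard4, all 3 with positive differences (median 0.92). Mylip encodes a ubiquitin ligase that is switched on by LXR, the nuclear receptor for oxysterols. It read 5.01, 6.08, 4.67 and 6.40 on the wild-type and 9.62, 5.64, 10.34 and 12.47 on the knockout arrays. Knockout replicates 5, 7 and 8 lay above every wild-type array, and replicate 6 lay among them. The difference was 3.98, or 15.7-fold (SE 1.33, 95% interval 0.89 to 7.06, unadjusted p = 0.0182 and adjusted p = 0.455 by limma), at 2.81 within slide row 1 and 5.14 within row 2. Without knockout replicates 7 and 8 together it was 2.09.
Mylip probe, first 30 bases: ttttctagggtgtcaggaaacctagctgac

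Soat1, which esterifies cholesterol for storage in droplets, had the highest mean signal of the 3, at 7.57, 9.34, 7.17 and 7.56 on the wild-type and 9.40, 7.68, 9.13 and 8.54 on the knockout arrays. The groups overlapped (difference 0.77, SE 0.58). Its other probe, at chr1:158370341-158370400 in mm9, was highest on wild-type replicate 3 (12.32) and knockout replicate 7 (8.21) and differed by -1.68 (SE 2.37). Stard4, a carrier of sterols between membranes, differed by 0.92 (SE 0.55), from 2.38 to 4.66 in the wild-type and from 4.33 to 5.39 in the knockout arrays.

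The sterol genes varied widely from array to array. A range of at least 4 log2 units, or 16-fold, across the 8 arrays was seen in 10 of the 28 tested genes (35.7%) and in 28.6% of all tested genes, and the median range was 2.97 against 2.35. Knockout replicate 7 was the highest array for 9 of the 28 genes, and its median deviation from each gene's own median was 0.92, against -0.30 over all genes. Among the 28 tested genes, signals more than 3 log2 units above a gene's own median were found in 5 genes on knockout replicate 7 and 4 on replicate 8. They were found in 2 each on wild-type replicate 3 and knockout replicate 5, and in 1 on wild-type replicate 4. Erlin2 and Mylip were so raised on knockout replicates 5, 7 and 8, and Lbr on knockout replicates 7 and 8. Sc5d and Acat2 were raised on wild-type replicate 3 and knockout replicate 7, which share slide row 2, and Msmo1 on wild-type replicate 4 and knockout replicate 8. The source of these jumps was not tested. How many of all genes were highest or so raised on each array was not computed. The counts per array thus cannot be called particular to the sterol genes.

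**Figure D4:**
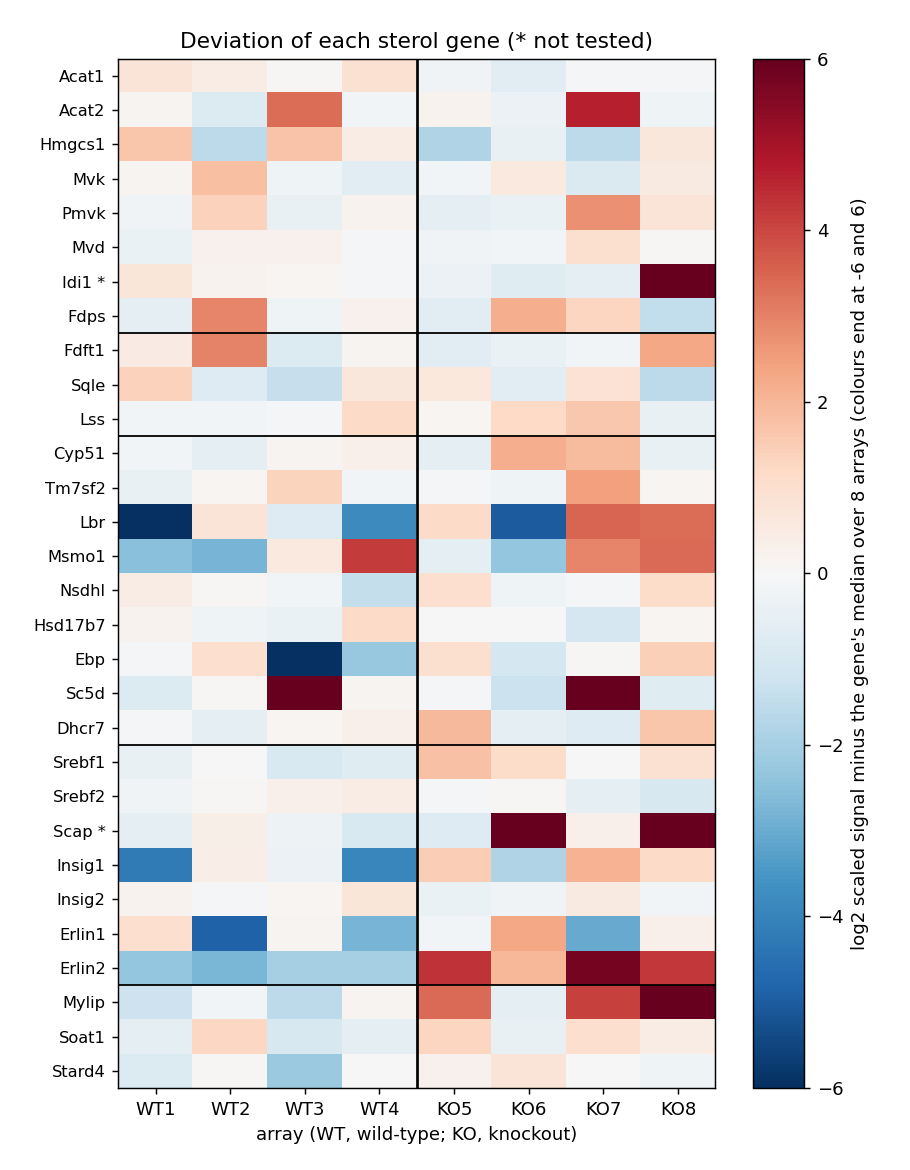
Deviation of each of the 30 genes (rows) on each array (columns) from the gene's own median over the 8 arrays, in log2 scaled signal, red above and blue below, with colours ending at -6 and 6. Erlin2 is the row that is blue on all wild-type and red on all knockout arrays. Knockout replicates 7 and 8 have more strongly red cells than the other arrays.

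Genes of the same pathways outside the set gave a background for these values. Of 59 such genes, 58 were tested, 31 lay above and 27 below 0, the median was 0.07, and none passed the adjusted threshold. Over all tested genes 30.8% lay above 0 and the median was -0.33. Of the 58, 38 lay above that median. The 17 tested genes that SREBP regulates had 7 above and 10 below 0 (median -0.27), and 11 lay above the median of all genes. Of the 14 genes of cholesterol efflux and LXR, 11 lay above 0 (median 0.59) and 12 above the median of all genes. Abca1, the main exporter to lipid-poor apolipoprotein, was at 1.05 (SE 0.84). The 15 genes of SREBP cleavage and sterol-regulated degradation had 8 above and 7 below 0 (median 0.08), and 8 lay above the median of all genes.

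Among the 12 genes of lysosomal and contact-site sterol transport, 5 lay above and 7 below 0 (median -0.21), and 7 lay above the median of all genes. By the brightest probe of each gene, the 3 genes with an unadjusted p under 0.05 (limma) outside the set were here. They were 1 higher and 2 lower of the 58 tested, where 1.62% of all genes were higher and 9.34% lower. Among single probes, a dimmer one of Rnf145, from the degradation list, was lower too (-0.71, SE 0.23, limma unadjusted p = 0.0163, adjusted p = 0.474). At that unadjusted threshold 8.77% of all single probes were lower, and the brightest Rnf145 probe differed by 0.59 (SE 1.51). Osbp, which exchanges cholesterol for a phosphoinositide at the Golgi, read 7.29, 6.75, 5.98 and 7.04 on the wild-type and 7.50, 9.61, 9.82 and 9.57 on the knockout arrays. Each knockout array exceeded every wild-type array (difference 2.36, SE 0.58, unadjusted p = 0.0039 and adjusted p = 0.455 by limma). Gramd1a and Gramd1b, which move cholesterol from the plasma membrane to the endoplasmic reticulum, differed by -1.24 (SE 0.52) and -0.61 (SE 0.24), each with a limma adjusted p of 0.455. The groups were apart for Gramd1b but not for Gramd1a. Both other tested Gramd1b probes had overlapping groups, at -0.55 (SE 1.49) and 2.66 (SE 1.34). Mbtps1, a protease that cuts SREBP, and Rnf139, a ligase of the endoplasmic reticulum, also had groups apart, at -0.38 (SE 0.24) and -0.54 (SE 0.26). Of the 58 tested genes, 1 was thus apart and higher and 3 apart and lower, against 0.643% and 10.9% of all genes.

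SREBP binds sterol regulatory elements, often beside CCAAT and GC boxes, so promoter windows from RefSeq (GRCm38.p6, from 250 bases before to 50 after a start) were searched on both strands. Windows were found for 24 of the 30 genes. The element TCACNCCAC was found in 1 of the 24 genes, Hmgcs1 (4.17%), and in 1.41% of protein-coding genes with a window and 1.44% of all genes with one. The shorter CACCCCAC, which overlaps it, was in Acat2 and Hmgcs1 (8.33%, against 3.33% of protein-coding and 3.3% of all genes). A CCAAT box was in 22 of the 24 genes (91.7%, against 42.3% of protein-coding and 41.1% of all genes) and a GC box, GGGCGG, in 23 (95.8%, against 49.2% of protein-coding and 38.2% of all genes). Some genes have several windows, and counted by window the CCAAT box was in 25 of 34 (73.5%, against 37.4% of all windows) and the GC box in 29 of 34 (85.3%, against 35.7%). The 250 bases before the Hmgcs1 start are shown as the window that holds the whole element, at chr13:119690101-119690350 of GRCm38.p6 on the plus strand, with the element in capitals.
Hmgcs1 upstream window: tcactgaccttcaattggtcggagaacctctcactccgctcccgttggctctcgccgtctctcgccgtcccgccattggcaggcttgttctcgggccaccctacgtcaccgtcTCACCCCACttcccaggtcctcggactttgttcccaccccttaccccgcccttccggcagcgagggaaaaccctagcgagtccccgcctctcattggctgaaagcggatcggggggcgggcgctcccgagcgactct
The element begins at position -137, counted from the start. A match in these letters is a description of the sequence and says nothing of binding in these cells. Only exact matches within the windows were counted, and variant spellings or more distant elements were not searched.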

How the data were processed

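RNA of 8 samples was read on 1 Agilent slide in a single colour and in 1 scan, with both groups in each of 2 slide rows (a block in an alternative), while columns 1 and 2 held wild-type and columns 3 and 4 knockout arrays, so column and genotype cannot be told apart. The authors deposited scanner files with the intensity of each spot, already background-corrected within the array per the file headers, which name build mm9. They also deposited a value table of linear intensity with a median of 132.9 per column, each column following its own array at r of 0.9977 or more, and this table was used as an alternative. Per the labels, random primers and a low-input kit were used.

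From the scanner files, control spots and outlier spots (25 to 149 per array) were left out, spots of a probe were averaged, and no spot was saturated. Probes were named through their accession or symbol with RefSeq genes (GRCm38.p6), which covered 67.1% of 60273 probes. Processed signals were put on the log2 scale and scaled to the 75th percentile of each array, and the probe with the highest mean stood for a gene if 4 or more of the 8 arrays had it well above background. Differences were fitted with limma 3.58.1 (lmFit and eBayes, R 4.3.3) over 42312 genes, or over 51203 single probes, two-sided, with Benjamini-Hochberg adjustment at 0.05. The fit was also run on simulated normal values with equal spread in both groups. That run does not cover the jumps of single arrays or the unequal spreads seen here. Python 3.11.15 and matplotlib 3.10.9 made tables and plots. Nothing says that samples came from separate animals, so p-values cover the spread among these 8 samples, possibly technical, and the number of arrays limits the precision.

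The members and gene lists were chosen with earlier results of these data known. All 30 genes are named; those with groups apart or an unadjusted p under 0.05, and the gene of highest mean signal per role, have values on every array, as have some others chosen after their values were seen (Insig1, Srebf2, Insig2, Scap, the second probes). Other pathway genes are named at an unadjusted p under 0.05, and Abca1, Mbtps1, Rnf139 and Rnf145 were chosen after their values were seen. Alternatives were other scalings, background corrections, filters, probe rules and names, slide rows and arrays left out; leaving out 2 arrays together was chosen after seeing the data. No column of per-sample values was left unused (0).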

Additional observations from a re-analysis of the deposited data

Results flagged for a closer look

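In 8 of the 60 groups of 4 arrays (30 genes, both groups), 1 array stood far from the other 3, with a gap to its nearest neighbour, as a share of the group's whole range, above Dixon's 95% critical value. For normally distributed values the rule flags about 1 in 20 groups, or 3 of 60. The share flagged over all genes was not computed, so the 8 cannot be called particular to the sterol genes. Wide ranges were common on these arrays, with 28.6% of all tested genes spanning at least 4 log2 units. Knockout replicate 7 accounted for 4 of the 8. It was the highest knockout array for Acat2 (11.35, the others at 6.33 to 6.89), Tm7sf2 (6.69, the others at 4.0 to 4.36) and Sc5d (11.78, the others at 3.31 to 4.50), and the lowest for Hsd17b7 (6.03, the others at 7.02 to 7.17). Knockout replicate 8 was the highest for Idi1 (11.02, the others at 2.64 to 3.05) and Fdft1 (6.65, the others at 3.71 to 4.15). Among the wild-type arrays, replicate 3 was the highest for Sc5d (11.73, the others at 3.78 to 4.74) and replicate 4 for Lss (8.06, the others at 6.74 to 6.78). Sc5d was thus set apart by 1 array in each group, both in slide row 2.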

How the results depend on the processing

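Of 611 single differences over 23 alternatives, 53 changed sign. In the alternatives that gave a value, the sign held for 13 genes, 10 positive and 3 negative (Acat1, Srebf2 and Hsd17b7), and turned in some alternative for 15. The cause of the changes was not tested. No paired analysis was possible because the groups share no replicate numbers. By scaling, cyclic loess gave Fdps 0.03, Fdft1 0.01, Sqle 0.25, Sc5d 0.02 and Insig2 0.11; quantile normalization gave Sqle 0.04 and Insig2 0.08; scaling to the array median gave Sqle 0.01; normexp gave Sqle 0.03 and Insig2 0.04; the authors' value table gave Sqle 0.05. The mean over all probes gave Insig2 0.37 and Soat1 -0.45, and names from the files' gene column alone gave Soat1 -1.68. Within slide row 1, Hmgcs1 was at 0.70, Pmvk at -0.61, Mvd at -0.14, Lss at -0.11, Tm7sf2 at -0.03, Msmo1 at -0.15 and Soat1 at -0.34. Within row 2, Fdps was at 0.73, Sqle at 0.76, Sc5d at 0.38 and Erlin1 at -2.19. Without wild-type replicate 3 and knockout replicate 7 together, Pmvk was at -0.52 and Mvd at -0.02. Without knockout replicates 7 and 8 together, Acat2 was at -0.70, Pmvk at -0.72, Mvd at -0.18, Fdps at 0.17, Sqle at 0.02, Tm7sf2 at -0.38 and Msmo1 at -1.32.

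With 1 array left out at a time, sign changes occurred for Acat2 (-0.77 to 1.34), Mvk (-0.53 to 0.27), Pmvk (-0.30 to 0.79), Mvd (-0.10 to 0.29), Fdps (-0.86 to 0.53), Fdft1 (-1.11 to 0.33), Sqle (-0.60 to 0.32), Tm7sf2 (-0.28 to 0.73) and Sc5d (-2.35 to 1.46). The number of sterol genes past the adjusted threshold was 0 to 1 (1 without knockout replicate 6, Erlin2), the number with an unadjusted p under 0.05 was 3 to 7 (7 without wild-type replicate 2), and the number with groups apart was 2 to 5 (4 without wild-type replicate 2, 5 without knockout replicate 6 and 4 without knockout replicate 7). The median difference was 0.09 to 0.63. The count with an unadjusted p under 0.05 was 2 with the filter at all 8 arrays, 1 with names from the gene column alone (7 genes left) and 2 within slide row 1. The count with groups apart was 1 with each of those first 2 choices, 7 within row 1 and 12 within row 2, where each group has 2 arrays, 4 without wild-type replicate 3 and knockout replicate 7 together, and 5 without knockout replicates 7 and 8 together. Groups of fewer arrays are apart more readily. The shares over all genes in these alternatives are not given here, so none of these counts can be called particular to the sterol genes. The median was -0.74 with names from the gene column alone. Signal over background limits Acat1, Mvd, Idi1, Fdft1, Tm7sf2, Lbr, Sc5d, Scap, Erlin1 and Stard4, each well above background on fewer than 7 arrays.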
